A study of Mus musculus with 12 samples.

Results

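Hepatocyte identity transcription factors are the DNA-binding proteins that switch on, and keep on, the genes a liver cell needs. The 9 genes described here are *Foxa1*, *Foxa2*, *Foxa3*, *Hnf4a*, *Cebpa*, *Cebpb*, *Prox1*, *Nr5a2* and *Nr1h3*, 9 of the 25676 genes in a table of mouse liver RNA, and they were chosen by name. *Foxa3* is at the same time the gene whose promoter drives the Cre recombinase of the study. Whole liver from 12 mice, each giving 1 RNA sequencing library, was compared to ask how the liver differs without YAP1, which has no DNA-binding domain and acts on genes through TEAD proteins. The 4 groups of 3 mice were wild-type (WT) males, WT females, *Yap1* knockout (KO) males and *Yap1* knockout females, all on a C57BL/6 background, and the title of the series gives an age of 3-4 months. In the KO mice *Yap1* was removed by Foxa3-Cre, a recombinase made in cells of the embryonic foregut endoderm, so hepatocytes and bile duct cells both descend from cells that could recombine, while immune, endothelial and stellate cells do not. The labels do not say whether WT mice carried the Cre gene, or how that gene was built.

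FOXA proteins are winged-helix pioneer factors that bind closed chromatin and open liver enhancers before other factors arrive. HNF4A is a nuclear receptor that holds together the hepatocyte gene program, C/EBP alpha and C/EBP beta are leucine zipper proteins of metabolic and of acute phase genes, PROX1 is a homeobox protein needed for hepatocyte migration out of the liver bud, NR5A2 (LRH-1) controls genes of bile acid synthesis, and NR1H3 (LXR alpha) is the oxysterol receptor of cholesterol and lipid genes. These factors bind each other's promoters and enhancers and form a mutually supporting network in the hepatocyte.

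Values are TPM as deposited, transcript abundances that are divided by gene length and sum to one total in each library. They are relative amounts, and say nothing of the absolute amount of RNA. *Yap1* lay between 23.0 and 34.9 TPM in the 6 WT livers and between 0.994 and 3.11 TPM in the 6 KO livers, in keeping with the labels in 12 of 12 libraries. Between 14321 and 15482 genes were above 0 TPM per library. TPM do not give the number of reads, so the depth of each library is unknown here. The tissue carried the defining hepatocyte transcripts in all libraries, with 10 hepatocyte markers summing to between 83940 and 111800 TPM in WT and between 64230 and 89540 TPM in KO. Major urinary protein transcripts took 3.14 to 15.8% of a WT library and 0.160 to 0.836% of a KO library. Because shares must add up, a second scale was used beside the first, with each library divided by its median-of-ratios size factor (0.724 to 0.949 in WT, 1.09 to 1.34 in KO). The median log2 difference of all 12278 tested genes, KO minus WT, was 0.35 as deposited and -0.04 after this rescaling, and the main genotype effects below are given on both scales.

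Markers of other cell types were counted by genotype. Over all 12278 tested genes limma called 50.1% higher and 4.82% lower in KO as deposited, and 20.9% and 18.7% after rescaling, and each count is to be read against these shares. Of 10 tested Kupffer cell and macrophage markers, 10 were higher in KO as deposited and 9 after rescaling, and their summed level was 107 to 385 TPM in WT and 613 to 1226 TPM in KO. Of 7 tested biliary markers, 5 were higher and 1 lower (4 and 1 after rescaling), with sums of 38.0 to 72.1 TPM in WT and 294 to 758 TPM in KO, most of it *Spp1*. Of 9 stellate cell markers, 6 were higher and 0 lower as deposited (4 and 2 after rescaling), with sums of 69.1 to 176 TPM and 157 to 387 TPM, so that as deposited the share of higher genes was not far from that of all genes. Of 10 hepatocyte markers 0 were higher and 3 lower as deposited, and 0 and 6 rescaled, and of 8 sinusoidal endothelial markers 1 was higher and 2 lower, and 0 and 3 rescaled, with sums of 62.3 to 100.3 TPM in WT and 39.99 to 144 TPM in KO for the latter. Markers of lymphatic endothelium, where *Prox1* is also made, gave 0 calls among 4 tested genes by limma on either scale. The lowest limma adjusted p among them was 0.0626 (*Pdpn*, as deposited, with means of 0.411 TPM in WT and 0.84 TPM in KO). Lymphocyte markers gave 0 calls among 5, where the lowest adjusted p on either scale was 0.299 (*Cd4*, rescaled). Of 10 pancreatic acinar markers 2 were tested, and 1 was lower on both scales, the elastase gene *Cela1*, at 19.4 TPM in WT and 10.8 TPM in KO (log2 -0.74, adjusted p = 0.0129 by limma, rescaled -1.17). Of 7 intestinal markers 2 were also tested, and 1 was lower on both scales, *Fabp2*, an intestinal fatty acid binding protein gene, at 75.9 and 27.01 TPM (-1.44, adjusted p = 2.38e-06 by limma, rescaled -1.89) without overlap, while *Lgals4* was at 11.9 and 8.43 TPM and did not pass, and was named after its values were seen. The pancreatic factor *Ptf1a* and the intestinal factors *Cdx1* and *Cdx2* were listed at 0 in all 12 libraries. In whole liver, fewer cells of a type and less RNA per cell cannot be told apart, and the part of these cell markers in the values below was not tested.

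The 9 genes spanned a wide range of levels. By mean TPM over the 12 livers, *Cebpb*, *Cebpa* and *Hnf4a* ranked 360th, 413th and 476th among the 12278 tested genes, *Nr1h3* ranked 1229th, *Foxa3* 1774th, and *Prox1*, *Nr5a2*, *Foxa2* and *Foxa1* 2804th, 3363rd, 4097th and 6296th. In WT the order of mean TPM was *Cebpa* (324), *Cebpb* (255), *Hnf4a* (217), *Nr1h3* (81.9), *Foxa3* (38.5), *Prox1* (27.4), *Nr5a2* (22.5), *Foxa2* (16.0) and *Foxa1* (8.69). Neighbours in that order overlapped in their single-animal values except *Hnf4a* against *Nr1h3* and *Nr1h3* against *Foxa3*. In KO the leading 3 changed places, with *Cebpb* at 399, *Hnf4a* at 274 and *Cebpa* at 256 TPM, again with overlapping values, and the other 6 kept their order. *Foxa3* stood clear of *Prox1* in the KO livers (52.6 to 78.4 against 23.6 to 43.4 TPM), which it did not in WT (24.4 to 65.7 against 14.6 to 35.8 TPM).

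**Figure D1:**
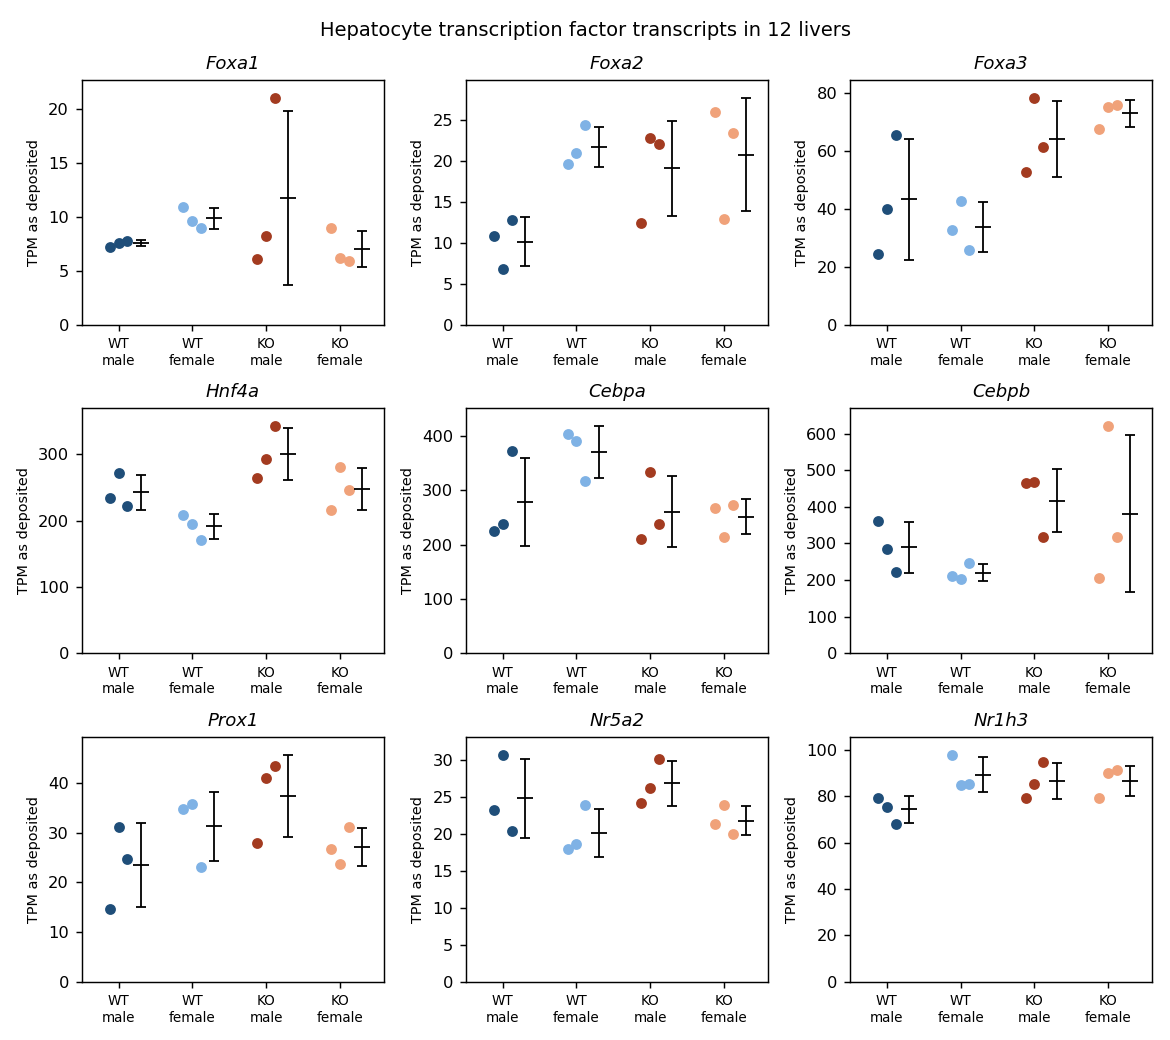
Each point is 1 liver, with TPM as deposited on the vertical axis from 0, the 4 groups on the horizontal axis, and the mean ± SD of the 3 livers beside each group. *Foxa3* lies between 52.6 and 78.4 TPM in KO and between 24.4 and 65.7 in WT, while *Nr1h3* covers nearly one range in both genotypes.

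Over both sexes, 3 of the 9 genes passed the limma test as deposited (adjusted p under 0.05 over all genes tested), *Foxa3*, *Hnf4a* and *Cebpb*, and all 3 were higher in KO. In the same comparison 54.9% of all tested genes passed, 50.1% being higher in KO and 4.82% lower. After rescaling, 2 other genes passed, *Cebpa* and *Nr1h3*, both lower in KO, where 39.6% of all tested genes passed (20.9% higher and 18.7% lower). No member passed in 1 direction on both scales, against 25.7% of all tested genes. The median log2 difference of the 9 genes was 0.25 as deposited, beside 0.35 for all genes, and -0.20 rescaled, beside -0.04. As deposited, 0 of the 9 genes had KO and WT values that did not overlap, where 30.6% of all tested genes did, and after rescaling *Nr1h3* was the 1 such gene, where 19.0% did and 8.19% lay lower in KO without overlap. *Foxa3* and *Cebpb* were the 2 members with a positive difference on both scales.

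**Figure D2:**
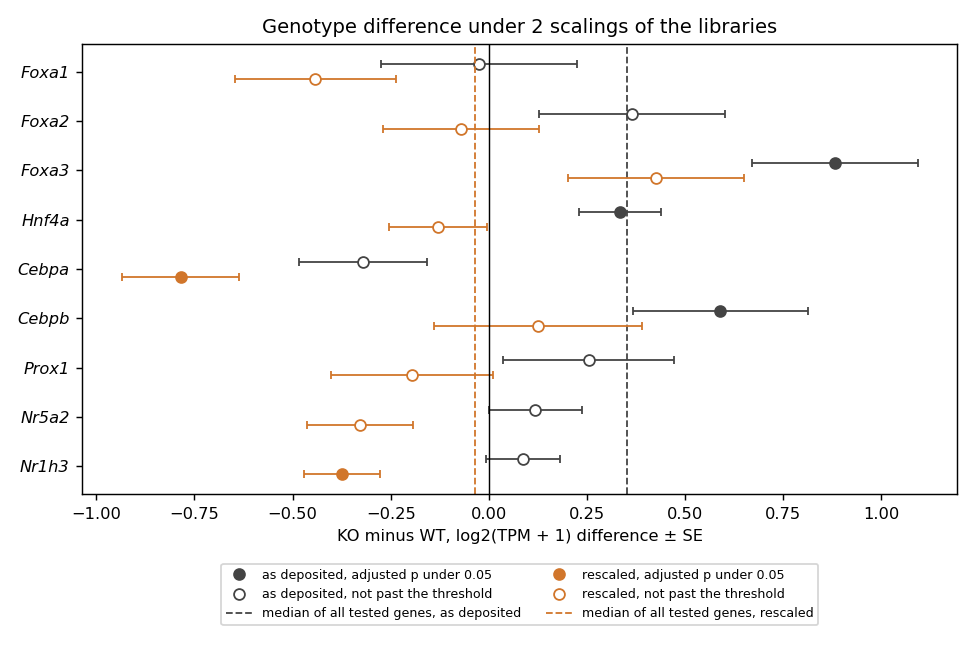
The horizontal axis is the KO minus WT difference in log2(TPM + 1) with its standard error for each of the 9 genes, grey as deposited and orange after rescaling, filled where the adjusted p was under 0.05. Dashed lines mark the median of all tested genes (0.35 as deposited, -0.04 rescaled), and no gene is filled on both scales.

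*Foxa3* encodes the third FOXA protein, had the highest TPM of the FOXA genes in all 12 livers, and lies at chr7:19013284-19023538 on the minus strand (GRCm38). The 6 WT livers measured 24.4, 39.8 and 65.7 TPM in males and 32.7, 42.8 and 25.8 TPM in females. The 6 KO livers measured 52.6, 78.4 and 61.3 TPM in males and 67.7, 75.3 and 76.1 TPM in females. Of the KO livers, 4 lay above all WT livers, the overlap being WT male 3, which exceeded KO males 1 and 3. The mean was 38.5 ± 15.2 TPM in WT and 68.6 ± 10.1 TPM in KO (SD, n = 6 each), a log2 difference of 0.88 (SE 0.211) with a limma adjusted p of 0.00321, and it passed with each library left out in turn (0.75 to 1.06, adjusted p 0.000185 to 0.00875). After rescaling the difference was 0.43 (SE 0.224, adjusted p = 0.151 by limma) and did not pass.

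The 250 bases before the start of *Foxa3* are shown because this is the stretch next to the gene whose promoter names the Cre line, beside the corresponding stretches of *Foxa1* and *Nr5a2*, the 2 members in which a searched motif was found. Sequences are from RefSeq (GRCm38.p6), written 5′ to 3′ on the gene's own strand, all 3 being minus strand genes: *Foxa3* chr7:19023540-19023789, *Foxa1* chr12:57546112-57546361 and *Nr5a2* chr1:136953631-136953880. The *Foxa1* and *Nr5a2* stretches lie before starts that are inside the gene intervals given for them below. Capitals mark a motif match.
Foxa3: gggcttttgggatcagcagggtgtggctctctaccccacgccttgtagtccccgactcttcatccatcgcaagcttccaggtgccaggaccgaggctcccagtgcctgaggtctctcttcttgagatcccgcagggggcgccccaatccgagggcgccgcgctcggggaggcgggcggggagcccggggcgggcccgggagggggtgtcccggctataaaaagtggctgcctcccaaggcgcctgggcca
Foxa1: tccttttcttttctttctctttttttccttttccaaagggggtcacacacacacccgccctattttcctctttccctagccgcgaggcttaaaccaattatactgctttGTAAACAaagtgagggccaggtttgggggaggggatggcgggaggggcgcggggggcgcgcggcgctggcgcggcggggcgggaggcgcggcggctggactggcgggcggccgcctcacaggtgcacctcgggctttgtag
Nr5a2: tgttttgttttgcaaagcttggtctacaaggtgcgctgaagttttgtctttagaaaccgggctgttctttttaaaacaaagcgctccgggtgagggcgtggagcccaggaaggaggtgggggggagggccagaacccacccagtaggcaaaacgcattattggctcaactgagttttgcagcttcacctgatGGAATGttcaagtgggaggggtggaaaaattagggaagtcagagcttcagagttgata
The table held 15 promoters of the 9 genes, each of 300 bases (250 before and 50 after the start), since several have more than 1 start. The 7 motifs searched on both strands were FOXA TGTTTAC, HNF4A CAAAGTCCA, C/EBP TTGCGCAA, NR5A2 CAAGGTCA, TEAD GGAATG, HNF1 as GTTAAT and ATTAA with 1 free base between them, and LXR as 2 copies of AGGTCA with 4 free bases between them. *Foxa1* held the reverse complement of the FOXA letters from base -141, which 3.65% of all 32851 promoters of that length hold on either strand. *Nr5a2* held the TEAD letters from base -58 of an inner start, which 14.7% hold. The promoter at its outer start, with chr1:136960449-136960698 before the start, held no match. These are matches of letters, and the other 13 member promoters, that of *Foxa3* included, held none of the 7. The *Foxa3* stretch is rich in G and C, at 68.8%, against 62.0% in that of *Foxa1* and 49.6% in that of *Nr5a2*.

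*Foxa2*, the FOXA gene also known for fasting metabolism and bile acid handling, lies at chr2:148042877-148046969 on the minus strand. WT males measured 10.9, 6.88 and 12.8 TPM and WT females 19.7, 21.0 and 24.5 TPM, so the sexes did not overlap in WT. KO males measured 12.5, 22.8 and 22.1 TPM and KO females 26.0, 12.9 and 23.5 TPM, with 1 low liver in each sex. Over both sexes the KO minus WT difference on the log2 scale was 0.36 (SE 0.238, adjusted p = 0.208 by limma) as deposited and -0.07 (SE 0.198, adjusted p = 0.802) rescaled, and neither passed. Without KO female 2, the low KO female, it was 0.55 as deposited with a limma adjusted p of 0.0336. Without WT male 2, the lowest WT liver, it was 0.21 with an adjusted p of 0.441.

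*Foxa1*, the first FOXA gene, which acts with *Foxa2* when the liver is specified, lies at chr12:57540628-57546916 on the minus strand and was the lowest of the 9. WT males measured 7.23, 7.58 and 7.77 TPM and WT females 10.9, 9.64 and 8.99 TPM. KO males measured 6.07, 8.19 and 21.0 TPM and KO females 8.92, 6.21 and 5.90 TPM. A single liver, KO male 3, stood far above the rest, and 3 KO livers lay below all WT livers. The log2 difference was -0.03 (SE 0.249, adjusted p = 0.936 by limma) as deposited and -0.44 (SE 0.205, adjusted p = 0.105) rescaled. As deposited the sign turned positive without WT female 1 (0.05), WT female 2 (0.02), KO male 1 (0.08), KO female 2 (0.05) or KO female 3 (0.07), and the value was -0.29 without KO male 3.

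Within a library, the share of each FOXA gene in the summed FOXA TPM does not depend on how the library is scaled. *Foxa3* made up 43.5 to 76.2% of it in WT (median 57.8%) and 58.7 to 79.7% in KO (median 71.9%). *Foxa1* made up 9.01 to 17.2% in WT (median 14.6%) and 5.59 to 20.1% in KO (median 8.0%). The ranges overlapped for both genes. The ratio of *Foxa3* to *Foxa2* had a median of 2.14 in WT and 3.34 in KO, a log2 difference of 0.51 (exact permutation within sex, two-sided p = 0.24, adjusted 0.24 over 3 planned ratios), and that of *Foxa1* to *Foxa2* medians of 0.581 and 0.420, a log2 difference of -0.43 (exact permutation p = 0.155, adjusted 0.233). The smallest p this test can give is 0.005. Leaving out 1 library at a time gave 0.29 to 0.64 for the ratio of *Foxa3* to *Foxa2* (exact permutation p 0.125 to 0.5, unadjusted). Without KO male 3 the ratio of *Foxa1* to *Foxa2* differed by -0.63 (exact permutation p = 0.03, unadjusted).

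The genes beside *Foxa3* on chromosome 7 were examined because *Foxa3* is the driver gene of the Cre. Of the 5 protein-coding genes of the table on each side, 7 were tested, and 5 of the 7 were higher in KO on both scales with 0 lower, where 50.1% of all tested genes were higher as deposited and 20.9% rescaled. The 5 are *Mypop*, *Irf2bp1*, *Sympk*, *Dmwd* and *Dmpk*, whose midpoints lie 21.9 and 13.0 kb on the lower-coordinate side and 21.1, 61.0 and 70.3 kb on the higher-coordinate side of that of *Foxa3*. In each of the 5, all 6 KO livers lay above all 6 WT livers as deposited, a pattern that 28.7% of all tested genes showed.

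*Dmpk*, the kinase gene whose repeat causes myotonic dystrophy in people, stood far above the others of this stretch. It measured 6.45, 4.35 and 7.06 TPM in WT males and 19.7, 12.8 and 11.1 TPM in WT females, and 144, 124 and 163 TPM in KO males and 174, 131 and 158 TPM in KO females. The KO mean was 14.6 times the WT mean, and the log2 difference was 3.88 (SE 0.207, limma adjusted p 8.86e-09) as deposited and 3.44 rescaled. *Dmwd*, next to it, went from a mean of 14.4 to 35.8 TPM (log2 1.27, rescaled 0.82). *Sympk*, a scaffold of the machinery that cleaves pre-messenger RNA, went from 24.1 to 52.2 TPM (1.07, rescaled 0.62), *Mypop* from 2.17 to 6.38 TPM (1.24, rescaled 0.88) and *Irf2bp1* from 12.3 to 23.6 TPM (0.91, rescaled 0.47). *Ccdc61* (0.18, rescaled -0.20) and *Six5* (0.12, rescaled -0.22), the outermost on either side, did not pass, and *Nova2*, *Nanos2* and *Rsph6a* were below the mean of 0.5 TPM needed for the test.

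The 5 genes were higher past the threshold in all 20 settings tried. *Foxa3* itself lies in the middle of them at 0.88 as deposited and 0.43 rescaled. Beyond the 10 nearest genes, 13 of 19 tested genes within 500 kb were higher and 0 lower as deposited, with a median log2 difference of 0.54, and 6 were higher and 1 lower after rescaling, with a median of 0.14. The same window of 10 genes around each of the other 8 members held 0 to 2 higher genes after rescaling, with medians of -0.36 to 0.33, beside 5 and 0.62 around *Foxa3*. As deposited the count around *Foxa3* did not stand apart, since 7 of 10 tested genes were higher around *Cebpb*, 7 of 9 around *Nr1h3*, 5 of 6 around *Foxa2* and 5 of 7 around *Hnf4a*, while the medians were -0.03 to 0.60 around the other 8 members and 1.07 around *Foxa3*. How the Foxa3-Cre gene was built is not given in the sources used here, and its part in the values of *Foxa3* and its neighbours was not tested. If WT mice carried no Cre, its presence and the loss of *Yap1* cannot be told apart in this design.

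**Figure D3:**
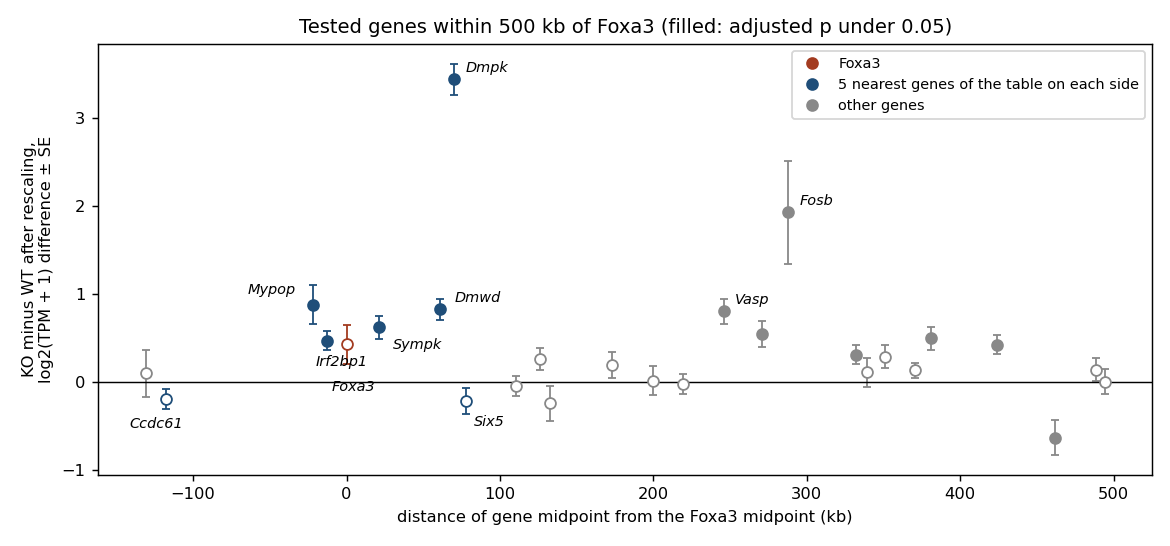
Each point is a tested gene within 500 kb of *Foxa3*, placed by the distance of its midpoint in kb, with the rescaled KO minus WT difference in log2(TPM + 1) ± SE on the vertical axis and filled where the adjusted p was under 0.05. *Dmpk* at 3.44 stands highest among the blue points, the 10 nearest genes, with *Foxa3* (red) at 0.43.

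*Hnf4a* lies at chr2:163506808-163572910 on the plus strand. WT males measured 234, 272 and 222 TPM and WT females 208, 195 and 171 TPM, the females below the males. KO males measured 265, 293 and 342 TPM and KO females 217, 281 and 246 TPM, 3 of the 6 lying above all WT livers. The genotypes differed by a log2 value of 0.33 (SE 0.104, adjusted p = 0.0154 by limma) as deposited, kept with each library left out in turn (0.29 to 0.38), and nearly the same as the 0.35 median of all genes. The call was lost when TPM were recomputed without the mitochondrial and the 20 most abundant genes (0.25, adjusted p = 0.0826 by limma). After rescaling it was -0.13 (SE 0.124, adjusted p = 0.436). Reads of the antisense gene *Hnf4aos*, which overlaps it, cannot be told apart from its own where strand was not used, and the use of strand is not given in the sources used here.

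*Nr5a2* lies at chr1:136842571-136960448 on the minus strand. WT males measured 23.3, 30.7 and 20.4 TPM and WT females 17.9, 18.7 and 23.9 TPM. KO males measured 24.2, 26.3 and 30.2 TPM and KO females 21.4, 23.9 and 20.1 TPM, all within the WT range. This gave a log2 difference of 0.12 (SE 0.118, adjusted p = 0.412 by limma) as deposited and -0.33 (SE 0.136, adjusted p = 0.0718) rescaled.

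*Nr1h3* lies at chr2:91184061-91202834 on the minus strand and varied least of the 9 between animals. WT males measured 79.4, 75.6 and 68.1 TPM and WT females 97.9, 84.7 and 85.5 TPM. KO males measured 79.3, 85.4 and 94.8 TPM and KO females 79.4, 89.9 and 91.2 TPM, all within the WT range. The log2 difference was 0.09 (SE 0.0947, adjusted p = 0.453 by limma) as deposited. On the rescaled scale the WT livers lay between 80.5 and 105 and the KO livers between 61.9 and 80.2, without overlap, and the difference was -0.37 (SE 0.0965, adjusted p = 0.0079), kept with each library left out (-0.42 to -0.32).

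*Cebpa* lies at chr7:35119293-35121928 on the plus strand. WT males measured 225, 239 and 371 TPM and WT females 404, 391 and 316 TPM. KO males measured 211, 334 and 237 TPM and KO females 267, 214 and 273 TPM, with 2 KO livers below all WT livers and the 3 KO females below the 3 WT females. The log2 difference was -0.32 (SE 0.164, adjusted p = 0.111 by limma) as deposited, where the median gene was at 0.35, and -0.43 with an adjusted p of 0.0274 without KO male 2. Without the mitochondrial and the 20 most abundant genes it was -0.40 and passed (adjusted p = 0.0415 by limma). After rescaling it was -0.78 (SE 0.149, adjusted p = 0.00108), with 5 of 6 KO livers below all WT livers, and it passed with each library left out (-0.89 to -0.72). *Cebpa* was the member with the lowest difference on both scales.

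*Cebpb* lies at chr2:167688915-167690418 on the plus strand and overlaps *Tmem189* on the other strand, itself at a mean of 10.3 TPM in WT and 10.9 TPM in KO. WT males measured 360, 286 and 221 TPM and WT females 212, 202 and 247 TPM. KO males measured 466, 468 and 318 TPM and KO females 207, 620 and 317 TPM, so that KO females alone held nearly the lowest and the highest of all 12 values. The genotypes differed by 0.59 on the log2 scale (SE 0.223, adjusted p = 0.0381 by limma) as deposited and 0.13 (SE 0.264, adjusted p = 0.737) rescaled. The call as deposited was lost (adjusted p 0.053 to 0.0814, log2 0.39 to 0.61) without any 1 of 8 livers: WT males 2 and 3, WT females 1 and 2, KO males 1 and 2, and KO females 2 and 3. It was also lost without the mitochondrial and the 20 most abundant genes (0.51, adjusted p = 0.0896) and with no filter on low values (0.59, adjusted p = 0.0624).

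The differences of the 2 C/EBP genes had opposite signs on both scales, and their ratio within a library does not depend on the scale. The ratio of *Cebpb* to *Cebpa* was 1.60, 1.20 and 0.595 in WT males, 0.525, 0.517 and 0.781 in WT females, 2.21, 1.40 and 1.34 in KO males, and 0.774, 2.89 and 1.16 in KO females. The median was 0.688 in WT and 1.37 in KO with overlapping ranges. The log2 difference was 0.91 (exact permutation within sex, two-sided p = 0.04, adjusted 0.12 over 3 ratios), which did not pass after adjustment, and it was 0.62 in males and 1.21 in females. Leaving out 1 liver at a time gave 0.65 to 1.12 with unadjusted exact permutation p of 0.01 to 0.09, which was 0.06 to 0.09 without WT male 3, WT female 1, WT female 2, KO male 1 or KO female 2, and exactly 0.05 without WT female 3 or KO female 3.

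All 36 ratios between members were then examined, a step added after the data were seen. With p-values adjusted over the 36 pairs, 0 passed 0.05 by the exact permutation test, while 8 had an unadjusted p under 0.05. The smallest p was that of *Foxa3* to *Cebpa*, at the floor of 0.005 (exact permutation, adjusted 0.144), and it was the 1 pair of 36 without overlap, with 0.0810 to 0.177 in WT and 0.235 to 0.352 in KO. *Cebpa* was the denominator in 5 of the 8, with *Prox1* (log2 0.59), *Foxa2* (0.71), *Hnf4a* (0.66) and *Cebpb* as the other numerators. *Foxa3* over *Nr1h3* (0.81), *Foxa3* over *Nr5a2* (0.78) and *Hnf4a* over *Nr1h3* (0.25) were the remaining 3. Ratios that share a gene are not independent of each other. Ratios between other tested genes were not examined, so neither the 8 nor the 1 pair without overlap can be read against a general share.

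**Figure D4:**
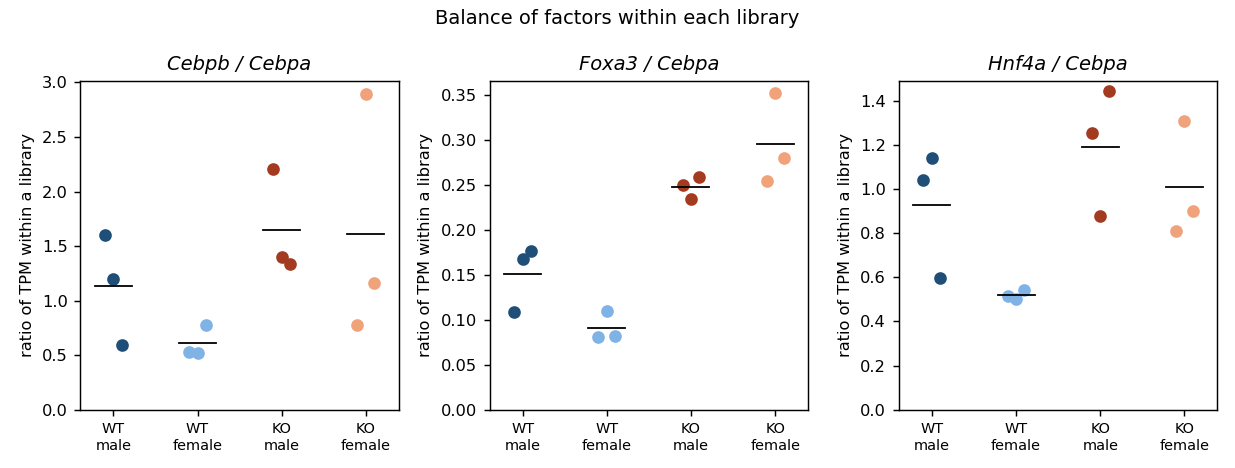
Each point is the ratio of 2 genes' TPM within 1 liver, on vertical axes from 0. The line is at the arithmetic mean of the 3 livers of a group. For *Foxa3* over *Cebpa* the 6 KO livers lie between 0.235 and 0.352 and the 6 WT livers between 0.0810 and 0.177, while the other 2 ratios overlap.

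*Prox1* lies at chr1:190118035-190170714 on the minus strand, with the antisense gene *Prox1os* overlapping it. WT males measured 14.6, 31.3 and 24.8 TPM and WT females 34.9, 35.8 and 23.2 TPM. KO males measured 28.0, 41.0 and 43.4 TPM and KO females 26.8, 23.6 and 31.2 TPM, so 2 KO males lay above all WT livers and no KO female did. Over both sexes the log2 difference was 0.25 (SE 0.217, adjusted p = 0.338 by limma) as deposited and -0.20 (SE 0.206) rescaled. Leaving out 1 library at a time gave 0.07 to 0.35 as deposited, the lowest being without WT male 1, and none passed.

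The genotype comparison was also made within each sex. In males 2 of the 9 genes passed as deposited, *Foxa2* (0.84, SE 0.29, adjusted p = 0.0318 by limma) and *Prox1* (0.69, SE 0.264, adjusted p = 0.0489), both higher in KO, where 46.1% of all genes passed and 43.3% were higher. After rescaling these were 0.30 (adjusted p = 0.408) and 0.13 (adjusted p = 0.769) and did not pass. After rescaling *Cebpa* alone passed in males (-0.66, adjusted p = 0.0402), where 24.1% of all genes passed and 10.2% were lower. In females *Foxa3* passed as deposited (1.12, SE 0.292, adjusted p = 0.0104), where 33.8% of all genes passed and 29.1% were higher, and was at 0.77 rescaled (adjusted p = 0.0732), which did not pass. *Cebpa* passed in females after rescaling (-0.91, adjusted p = 0.00755), where 26.1% passed and 10.9% were lower. As deposited *Cebpa* was at -0.08 in males (adjusted p = 0.767) and -0.56 in females (adjusted p = 0.0657) and passed in neither. The male call of *Foxa2* was lost without WT male 1, WT male 2, KO male 2 or KO male 3 (adjusted p 0.0503 to 0.129), and that of *Prox1* without any 1 of 9 livers (adjusted p 0.0534 to 0.204), the exceptions being WT male 2, WT female 3 and KO male 1. In males *Foxa3* was at 0.65 as deposited (adjusted p = 0.0856 by limma) and 0.08 rescaled (adjusted p = 0.871), and did not pass. Without WT male 3, the WT liver highest in *Foxa3*, *Foxa3* passed in males as deposited (1.00, adjusted p = 0.00761). In females *Cebpb* passed without KO female 1 (1.01, adjusted p = 0.0219), and *Cebpa* passed as deposited without KO male 2 or WT male 3 (-0.56, adjusted p 0.0483 and 0.0319).

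The difference between the sexes in the genotype effect was itself tested. By limma 0 of the 9 genes passed for this interaction on either scale, where 0.912% of all genes passed as deposited and 0.839% rescaled, while 2 members as deposited and 0 rescaled had an unadjusted p under 0.05. The 2 were *Foxa2* (0.95, adjusted p = 0.524), at 0.84 in males and -0.11 in females, and *Prox1* (0.87, adjusted p = 0.524), at 0.69 and -0.18. Rescaled, the interactions were 0.75 and 0.65 (adjusted p = 0.664 and 0.801). Males and females of 1 genotype were compared as well. In WT, limma called 0 of the 9 genes, where 5.74% of all genes passed as deposited and 4.38% rescaled, with 2 and 3 members at an unadjusted p under 0.05. *Foxa2* came nearest, at a mean of 10.2 ± 3.02 TPM in WT males and 21.7 ± 2.48 TPM in WT females (SD, n = 3 each), a log2 difference of -1.06 (adjusted p = 0.0523 by limma, rescaled -0.85 with 0.0707) that as deposited passed without WT male 3 (-1.22, adjusted p = 0.0267) and without KO male 1, KO female 1 or KO female 2 (adjusted p 0.0286 to 0.0481). *Cebpa* passed, lower in males, without WT male 3 (-0.67, adjusted p = 0.0482). In KO, limma called 0 of the 9 on either scale, with 0 at an unadjusted p under 0.05, where 0.0814% of all genes passed on each scale. The shares of all genes in this paragraph are at an adjusted p under 0.05. Shares at an unadjusted p were not counted, so the member counts at an unadjusted p have none beside them.

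The authors' deposited table gives its own KO against WT comparison, made in a way not given in the sources used here. In the authors' deposited table the log2 fold change was 0.40 for *Foxa3* (FDR 0.23), 0.31 for *Foxa2* (0.36), -0.37 for *Foxa1* (0.34), -0.39 for *Hnf4a* (0.32), -0.62 for *Cebpa* (0.06), -0.27 for *Cebpb* (0.5), -0.26 for *Prox1* (0.53), -0.60 for *Nr5a2* (0.02) and -0.45 for *Nr1h3* (0.02). *Nr5a2* and *Nr1h3*, both lower, were the 2 members with an FDR under 0.05 there, and *Foxa3* and *Foxa2* the 2 with a positive value. The share of all genes with an FDR under 0.05 in that comparison was not counted, so the 2 cannot be read against it.

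Other transcription factors of the hepatocyte were read from a list of 17, all tested. As deposited 2 were higher and 3 lower in KO, and after rescaling 1 was higher and 10 lower, with medians of 0.03 and -0.40. For these and the following lists the values over all tested genes were, as above, 50.1% higher and 4.82% lower as deposited and 20.9% and 18.7% rescaled, with medians of 0.35 and -0.04. *Ppara*, the receptor of fatty acid oxidation, fell on both scales, from 39.1 ± 12.3 to 15.3 ± 3.68 TPM (SD, n = 6 each; log2 -1.27, adjusted p = 0.000257 by limma, rescaled -1.71), without overlap. *Hlf*, a clock-driven leucine zipper factor, fell from 17.2 ± 6.54 to 8.76 ± 2.18 TPM (-0.84, rescaled -1.26). *Gata6*, a GATA factor of early endoderm, rose from 3.02 ± 0.498 to 7.93 ± 0.729 TPM (1.16, rescaled 0.77), without overlap. Of 5 tested relatives of the 9 genes, 2 were higher as deposited and 0 after rescaling: *Cebpd*, the C/EBP delta gene of inflammation, with means of 5.0 and 11.5 TPM (log2 1.17, adjusted p = 0.00347 by limma, rescaled 0.76 with an adjusted p of 0.0801), and *Nr1h2*, LXR beta, with 25.8 and 35.1 TPM (0.45, rescaled 0.00).

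Known target genes of the factors were counted by factor, without assuming that a factor acts on them in these livers, and several genes stand in more than 1 list. Of 15 HNF4A targets, 3 were higher and 5 lower as deposited and 2 and 7 after rescaling, with medians of 0.02 and -0.44. In either direction 8 of 15 passed as deposited, where 54.9% of all genes did. By direction the counts differed from all genes, of which 50.1% were higher and 4.82% lower as deposited. After rescaling these shares of all genes were 20.9% and 18.7%. *Dio1*, the deiodinase that activates thyroid hormone, fell from 169 to 50.03 TPM (log2 -1.67, rescaled -2.13), while the lipoprotein genes *Apoa4* (115 to 551 TPM, 2.32, rescaled 1.85) and *Apoc2* (250 to 696 TPM, 1.46, rescaled 0.99) rose. The apolipoprotein genes of the list did not move one way: *Apoa2* fell from 17890 to 9910 TPM (-0.85, adjusted p = 0.00238 by limma, rescaled -1.32) and *Apoc3* from 2887 to 1950 TPM (-0.55, adjusted p = 0.0441, rescaled -1.01), both with overlapping livers, and *Apoa1* (0.02, rescaled -0.44) and *Apob* (0.26, rescaled -0.21) passed on neither scale. These 4 were named after their values were seen. Of 9 tested FOXA targets, 2 were higher and 1 lower as deposited and 2 and 2 rescaled, with medians of 0.22 and -0.25. *Ttr*, which carries thyroid hormone and retinol and is also an HNF4A target and a hepatocyte marker, fell from 7453 to 3537 TPM (-1.10, rescaled -1.57), *Afp*, the fetal albumin, rose from 0.868 to 4.59 TPM (1.56, rescaled 1.25), and *Igfbp1*, a fasting-induced binding protein, rose from 390 to 1238 TPM (3.14, rescaled 2.68) with overlapping livers.

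Metabolic and acute phase targets of C/EBP factors were counted apart. Of 10 metabolic targets 0 were higher and 1 lower as deposited, and 0 and 5 rescaled, with medians of 0.06 and -0.40, and the 1 was *Gys2*, liver glycogen synthase, at 136 TPM in WT and 60.7 TPM in KO (log2 -1.03, rescaled -1.49). Of 10 acute phase targets 9 were higher and 0 lower as deposited, and 6 and 0 rescaled, with medians of 2.11 and 1.64. *Lcn2*, which withholds iron from bacteria, rose from 29.5 ± 24.2 to 1626 ± 475 TPM (SD, n = 6 each; 6.06, limma adjusted p 2.15e-07, rescaled 5.60). *Orm2* and *Orm3*, orosomucoid genes of 1 family that can share reads, rose from 130 to 3224 TPM (4.99, rescaled 4.53) and from 17.8 to 85.2 TPM (2.58, rescaled 2.14). For each of these 3 genes all KO livers lay above all WT livers. Neutrophils also make *Lcn2*, and of their markers 3 of 4 tested were higher as deposited and 1 rescaled, with sums of 0.449 to 21.9 TPM in WT and 12.8 to 47.1 TPM in KO. The granulocyte gene *Ly6g* was listed at 0 in the 6 WT livers and did not exceed 0.199 TPM in KO, and the part of these markers was not tested.

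Of 11 LXR targets, 4 were higher and 2 lower as deposited and 2 and 4 rescaled, with medians of 0.27 and -0.19, where 54.9% and 39.6% of all genes passed. *Lpl*, lipoprotein lipase, rose from 7.68 ± 4.54 to 176 ± 53.1 TPM (4.45, limma adjusted p 1.16e-07, rescaled 4.00) and *Abcg1*, a cholesterol exporter, from 1.52 to 5.19 TPM (1.27, rescaled 0.93), both genes that macrophages also express. *Abcg8*, which secretes sterol into bile, fell from 49.3 to 20.1 TPM (-1.21, rescaled -1.66). The part of the higher macrophage markers in these values was not tested. Of 6 NR5A2 targets, 2 were higher and 1 lower as deposited and 1 and 3 rescaled, with medians of 0.29 and -0.17. *Cyp8b1*, the sterol 12-alpha-hydroxylase of cholic acid synthesis, fell from 192.2 ± 59.5 to 30.2 ± 9.94 TPM (-2.66, limma adjusted p 1.33e-06, rescaled -3.11), and *Scarb1*, the HDL receptor, rose from 90.3 to 166 TPM (0.89, rescaled 0.43).

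**Figure D5:**
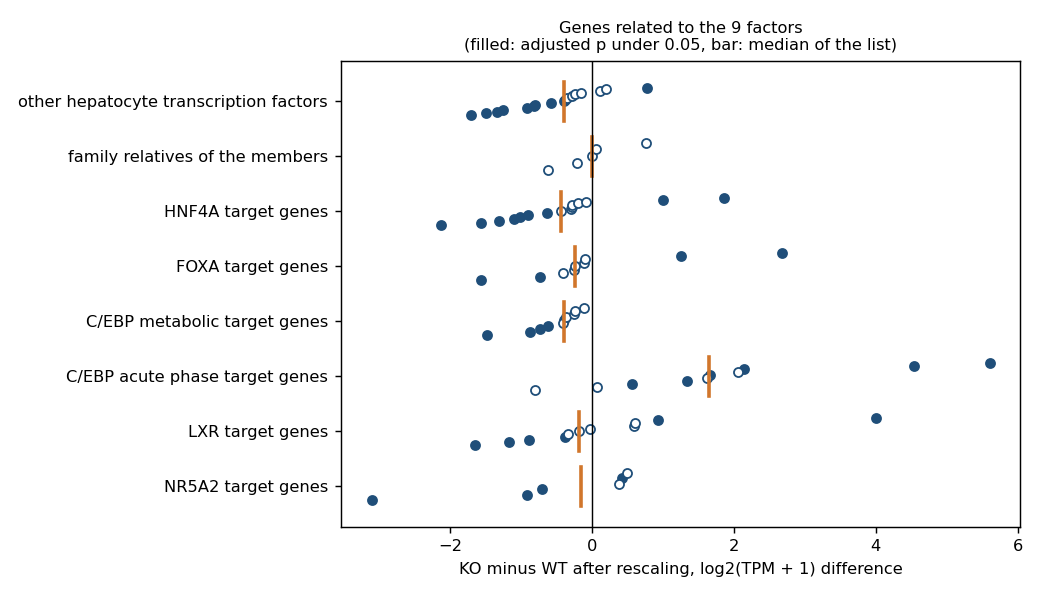
Each point is a gene of a list related to the 9 factors, placed by its rescaled KO minus WT difference in log2(TPM + 1) and filled where the adjusted p was under 0.05, with an orange bar at the median of the list. The acute phase targets have a median of 1.64, and the medians of the other lists lie between -0.44 and 0.00.

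For each member, the tested genes whose log2(TPM + 1) ran most nearly parallel to it over the 12 livers were found by the root mean square difference after centring, as a description only. For *Foxa3* these were *Pbx4* (0.267), *Prr12* (0.272) and *Sema3b* (0.280), against a spread of *Foxa3* about its own mean of 0.570 on the same scale. For *Cebpa* they were *Aqp9* (0.123), the glycerol channel of hepatocytes, *Aqp11* (0.132) and *Zcchc24* (0.146), against 0.329, and for *Cebpb* *Bhlhe40* (0.206), *Gm45140* (0.254) and *Nr4a2* (0.261), against 0.509. The nearest to *Hnf4a* was *Erc1* (0.0825, against 0.266), to *Foxa1* *Zfp551* (0.195, against 0.432), to *Foxa2* *Zfp763* (0.197, against 0.536), to *Prox1* *Slc17a7* (0.200, against 0.394), to *Nr5a2* *Arhgap5* (0.0960, against 0.228) and to *Nr1h3* *Pus3* (0.0825, against 0.139). Likeness of this kind is partly set by level, since genes at low TPM vary little on this scale.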

How the data were processed

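RNA sequencing of 12 livers was deposited by the authors as 1 table of TPM for 25676 genes, per the file headers, each column summing to 1000000. The submitters' processing notes name edgeR and the genome build GRCm38, while the aligner, the counter and the use of strand are not given in the sources used here. The same table holds the authors' own fold change, log2 fold change and FDR for KO against WT, deposited as rounded values and quoted only where named. All 12 sample columns were matched, and 0 were left over. Groups came from sample titles, and each sample is a separate animal. TPM were analysed as log2(TPM + 1) for the 12278 genes with a mean of at least 0.5 TPM, with limma 3.58.1 in R 4.3.3 (trend, two-sided, Benjamini-Hochberg over all tested genes, threshold 0.05), with sex as a covariate over both sexes and 1 model of 4 group means for the other contrasts. A fold change on this scale understates that of low genes. Rescaling divided TPM by median-of-ratios size factors over 12819 genes above 0 in all samples. Ratios within a library (pseudocount 0.01) were tested by exact permutation of genotype within sex (400 arrangements, two-sided). The fit was tested on simulated data. Positions are from GENCODE M21, which matched 25635 identifiers. The 9 members and the gene lists were chosen with earlier results of these data known. Named genes were the 9 members, *Yap1*, up to 3 genes of each list with the largest change past the threshold, the neighbours of *Foxa3* and the 3 genes nearest in pattern to each member, of which 1 to 3 are printed. The symbols Ddit3 and Tf matched no row of the table. Alternatives were another scaling, pseudocount or filter, animals left out, and a covariate for animals with a number below 100 in the labels. One gene named by this rule is not reported here.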

Additional observations from a re-analysis of the deposited data

Results flagged for a closer look

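*Foxa1* in the KO livers had 1 value far from the others: KO male 3 measured 21.0 TPM and the next highest KO liver 8.92 TPM. The gap was 0.800 of the whole range of the 6 KO livers, above the 95% critical value of Dixon's test for 6 samples. After rescaling KO male 3 measured 15.7 and the next highest KO liver, KO male 2, 7.105. This was 1 of 18 groups of 6 examined, and chance marks about 1 group in 20. No explanation was tested.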

How the results depend on the processing

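No paired analysis was possible because the labels give no replicate numbers that the groups share. Median-of-ratios rescaling turned the sign of *Foxa2* (-0.0711), *Hnf4a* (-0.13), *Prox1* (-0.20), *Nr5a2* (-0.33) and *Nr1h3* (-0.37), by construction of the scale, and the same rescaling without both animals numbered below 100 (WT female 3 and KO female 1), chosen after seeing the data, gave -0.0093, -0.13, -0.18, -0.27 and -0.33 and 4087 genes past the threshold of all tested. The number of members past the threshold in males, 2 as reported, was 1 after rescaling, without the mitochondrial and 20 most abundant genes, with a pseudocount of 0.1, with a covariate for the 2 animals or without them, and 0 with no filter and with rescaling without the 2 animals. In females it was 2, not 1, without the abundant genes, and in the sex comparison of WT 1, not 0, without the abundant genes and with the pseudocount of 0.1. Without the 2 animals *Cebpb* and not *Foxa3* passed in females (1.10 and 1.00 log2, limma adjusted p 0.0329 and 0.0737). The ratio of *Cebpb* to *Cebpa* was 1.22 (exact permutation p = 0.0667) without the 2 animals. Leaving out 1 library at a time gave -0.288 to 0.0762 for *Foxa1*, 0 to 2 members in males, 1 to 2 in females, 0 to 2 in the sex comparison of WT, 0.65 to 1.12 for the ratio of *Cebpb* to *Cebpa* and -0.63 to -0.28 for that of *Foxa1* to *Foxa2*. Where no cause is named, it was not tested. Precision is limited by 3 animals a group, and read depth is not given by TPM.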
